A study of Mus musculus with 6 samples.

Results

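Acute-phase proteins are plasma and secreted proteins whose synthesis rises in inflammation, mostly in the liver but also in myeloid cells, fat and stroma. Cytokines of the interleukin-6 family act through the shared receptor chain gp130 and JAK kinases to activate STAT3, which works with C/EBP factors and glucocorticoids on the genes of acute-phase proteins, while SOCS3 blocks the same receptors as a feedback inhibitor. In bone marrow several of these proteins are also made during neutrophil maturation and stored in granules.

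The genes described here are 9 of the 18193 genes with a probe set of their own on the array: the acute-phase protein genes Orm1, Orm2, Hp, Lrg1 and Saa3, the secreted-protein gene Crispld2, and the regulator genes Stat3, Socs3 and Cebpd. Every probe set annotated with exactly 1 of these symbols was taken, 17 of 45037. The set was chosen from the measured difference between the groups, since Orm1 and Crispld2 were known to be higher with NOX-A12 when it was drawn up, so the differences of its members are given as descriptions, with no test. Crispld2 is not a classical acute-phase gene.

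The RNA was that of whole marrow, taken from SCID/Bg mice. This immunodeficient strain is without mature T and B lymphocytes and with impaired natural killer cells. The groups were 3 mice given NOX-A12, an RNA-like mirror-image aptamer that binds the chemokine CXCL12, and 3 mice with no treatment. Each mouse was measured on 1 Affymetrix mouse expression array. The sources used here do not give age, sex, dose, route or time after dosing, nor any treatment with a vehicle.

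Median intensities were 44.9 to 45.5 on the NOX-A12 arrays and 44.8 to 45.6 on the untreated arrays. With 3 arrays a group, precision is limited by their number. Erythroid Slc4a1 and Alas2 and neutrophil S100a8 and Ngp were bright on all arrays, but the probe set of the globin gene Hba-a1 averaged under an intensity of 16. Of T-cell markers, Cd3e and Cd4 averaged under 16 as well, while Cd3d averaged 1813 in NOX-A12 and 1319 in untreated marrow. The array of untreated mouse 3 stood apart, with correlations across probe sets of 0.982 to 0.985 with the other 5 arrays, against 0.991 to 0.994 among those 5, so the members' differences and the medians of the pathway lists are also given without it. In a limma fit over all probe sets, 0 of 45037 (0%) passed at an adjusted p under 0.05 (lowest 0.790). At an unadjusted p under 0.05, 845 probe sets (1.88%) were higher and 1395 (3.1%) lower in NOX-A12 marrow. Differences are given as the NOX-A12 value less the untreated one, in units of log2(intensity + 16). The offset understates changes of dim probe sets, and each difference carries the standard error (SE) of that fit.

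Orm1 encodes alpha-1-acid glycoprotein, a plasma carrier protein of the acute phase that is also found in neutrophil granules. Its probe set had intensities of 885, 877 and 872 in the NOX-A12 mice, against 514, 524 and 418 in the untreated mice. The groups did not overlap, and the NOX-A12 mice lay close together while untreated mouse 3 was lowest. The means were 878 ± 6.15 in NOX-A12 marrow and 485 ± 58.4 in untreated marrow (SD, n = 3 each), a ratio of 1.81 and a log2 difference of 0.84 ± 0.11 (SE). Leaving out 1 mouse at a time gave 0.74 to 0.90, the lowest value being the one without untreated mouse 3.

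Crispld2 encodes a secreted protein of the cysteine-rich secretory protein family, whose rat gene was described as inducible by glucocorticoids in fetal lung. It had 3 probe sets, and NOX-A12 marrow was higher at each of them with no overlap. At 1437056_x_at, the brightest, intensities were 1699, 1698 and 1957 in NOX-A12 mice, against 1060, 1077 and 1275 in untreated mice. At 1434758_at they were 783, 814 and 893 in NOX-A12 mice, against 497, 422 and 509 in untreated mice. At 1460458_at they were 530, 578 and 655 in NOX-A12 mice, against 323, 311 and 345 in untreated mice. Mouse 3 was the highest of its group at all 3 probe sets, in the NOX-A12 group and in the untreated group alike, where Orm1 was lowest in untreated mouse 3.

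The log2 differences of Crispld2 were 0.64 ± 0.11 at 1437056_x_at, 0.78 ± 0.11 at 1434758_at and 0.81 ± 0.11 at 1460458_at (SE). The means behind them were 1785 ± 149 in NOX-A12 and 1137 ± 119 in untreated marrow at the first, 830 ± 56.7 and 476 ± 47.1 at the second, and 588 ± 63.1 and 326 ± 16.9 at the third, each pair with NOX-A12 marrow before untreated marrow (SD, n = 3 each). The suffix x marks a probe set that may bind other transcripts, and this one gave the smallest of the 3 differences. Without untreated mouse 3 the differences were 0.73, 0.83 and 0.85 in the same order, and over all single-mouse omissions they stayed between 0.58 and 0.88.

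**Figure D1:**
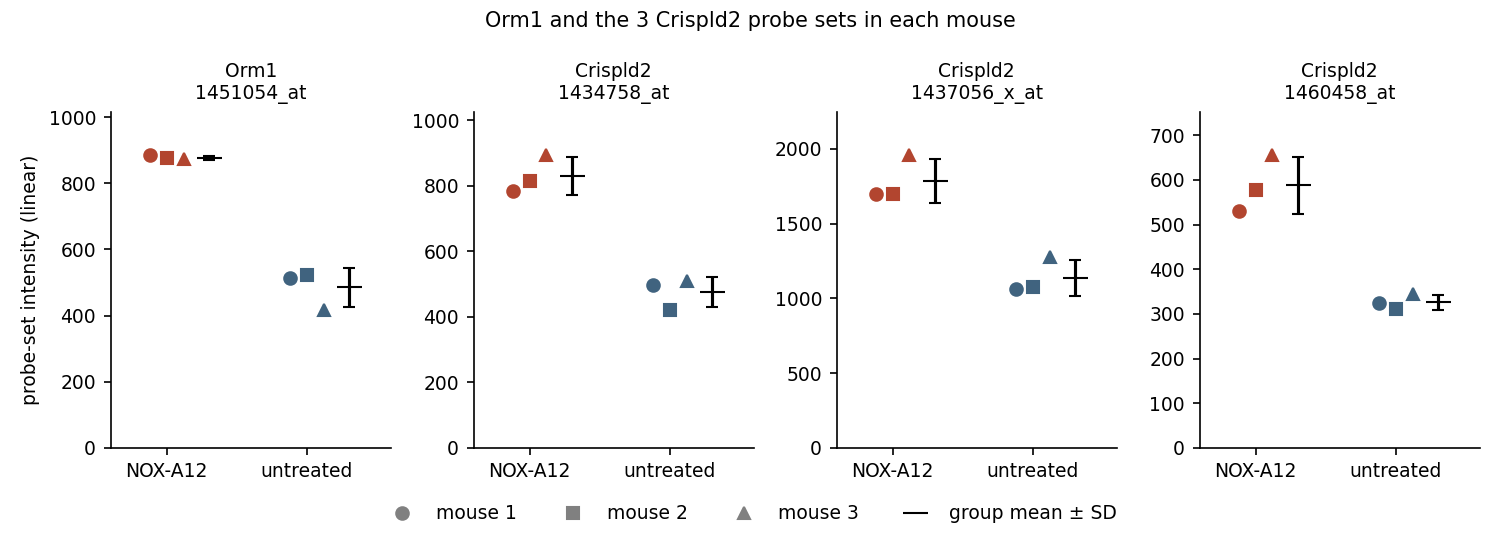
Probe-set intensity (linear scale) of Orm1 and of the 3 Crispld2 probe sets in each mouse, NOX-A12 left and untreated right, with the group mean and SD beside the points. All NOX-A12 mice lie above all untreated mice in the 4 panels, and Orm1 spans only 872 to 885 among NOX-A12 mice.

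The promoter of Crispld2, from 250 bases before to 50 bases after the gene start in RefSeq (GRCm38.p6, chr8:119992188-119992487, plus strand), is shown because Crispld2 is 1 of the 2 genes with a separation of the groups. Capitals would mark matches to the motifs described further on, and there were 0.
Crispld2: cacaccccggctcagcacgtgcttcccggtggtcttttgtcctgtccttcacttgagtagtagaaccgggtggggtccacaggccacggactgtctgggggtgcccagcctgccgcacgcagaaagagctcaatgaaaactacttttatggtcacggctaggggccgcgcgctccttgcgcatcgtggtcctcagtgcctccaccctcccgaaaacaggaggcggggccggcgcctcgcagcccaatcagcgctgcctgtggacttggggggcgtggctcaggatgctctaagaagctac

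The other acute-phase protein genes showed no such separation. Hp encodes haptoglobin, which binds free haemoglobin and is stored in neutrophil granules. Its intensities were 4497, 4981 and 4376 in NOX-A12 mice, against 4176, 4592 and 4188 in untreated mice. The groups overlapped, with 2 of 3 NOX-A12 mice below untreated mouse 2, and the log2 difference was 0.10 ± 0.10 (95% interval -0.13 to 0.32), or 0.07 without untreated mouse 3.

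Lrg1 encodes leucine-rich alpha-2-glycoprotein, a STAT3-responsive plasma protein also held in neutrophil granules. Its intensities were 1904, 1881 and 1651 in NOX-A12 mice, against 1903, 2031 and 1704 in untreated mice. Mouse 3 was lowest in both groups, and the log2 difference was -0.05 ± 0.11 (95% interval -0.31 to 0.21), with a sign that turned when NOX-A12 mouse 3 (0.01) or untreated mouse 2 (0.01) was left out. Without untreated mouse 3 it was -0.12. The intervals of Hp and Lrg1 lie below the differences of Orm1 and of all 3 Crispld2 probe sets. However, Orm1 and Crispld2 were in the set because they were known to be higher, and the difference between genes was not tested.

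Orm2 and Saa3 were dim in both groups. Orm2, a close relative of Orm1, had intensities of 6.74, 6.11 and 15.7 in NOX-A12 mice, against 15.2, 17.3 and 6.02 in untreated mice. Saa3, the serum amyloid A of macrophages and fat, had intensities of 8.95, 3.00 and 9.84 in NOX-A12 mice, against 5.22, 13.3 and 5.30 in untreated mice. The NOX-A12 values of Orm2 lay within its untreated range, and for Saa3 the groups overlapped in part. The log2 differences were -0.17 ± 0.20 for Orm2 and -0.04 ± 0.18 for Saa3, at intensities close to or under the offset of 16, where a change would be poorly seen. Without untreated mouse 3 they were -0.36 for Orm2 and -0.11 for Saa3. Leaving out dim probe sets removed these 2 and kept the other 15 of the 17.

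Orm1, Orm3 and Orm2 lie next to each other on chromosome 4. Orm3 had its own probe set, which was also dim, at a mean of 5.57 in NOX-A12 and 5.49 in untreated marrow. The signal of the Orm family on these arrays thus came from the probe set annotated as Orm1, and whether that probe set also binds transcripts of the other 2 genes was not tested.

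The regulators were measured at 9 probe sets, and the groups overlapped at all of them. Stat3 encodes the transcription factor at the end of gp130 signalling. At 1460700_at, its brightest probe set, intensities were 730, 718 and 735 in NOX-A12 mice, against 660, 719 and 662 in untreated mice. Only untreated mouse 2 reached the NOX-A12 range, and the log2 difference was 0.10 ± 0.09, or 0.08 without untreated mouse 3. At 1426587_a_at intensities were 621, 645 and 652 in NOX-A12 mice, against 651, 625 and 402 in untreated mice, so that 1 array set the difference of 0.22 ± 0.18, which was 0.00 without untreated mouse 3. The remaining Stat3 probe sets gave 0.03 ± 0.09 and -0.01 ± 0.12, or 0.02 and -0.02 without untreated mouse 3.

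Socs3 encodes the feedback inhibitor of gp130 and of the G-CSF receptor, and its transcription is a direct target of STAT3. At 1455899_x_at intensities were 164, 129 and 130 in NOX-A12 mice, against 145, 149 and 112 in untreated mice. NOX-A12 mouse 1 was highest and untreated mouse 3 lowest at all 3 Socs3 probe sets, whose log2 differences were 0.05 ± 0.14, 0.09 ± 0.17 and 0.10 ± 0.18. All 3 turned negative without untreated mouse 3 (-0.06, -0.07 and -0.02) and without NOX-A12 mouse 1 (-0.05 at each).

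Cebpd encodes C/EBP delta, a transcription factor induced in inflammation. At 1423233_at intensities were 3162, 2896 and 2807 in NOX-A12 mice, against 2535, 2986 and 2728 in untreated mice. The groups overlapped, and the log2 differences were 0.10 ± 0.10 there and 0.08 ± 0.11 at its dimmer probe set, or 0.10 and 0.16 without untreated mouse 3.

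**Figure D2:**
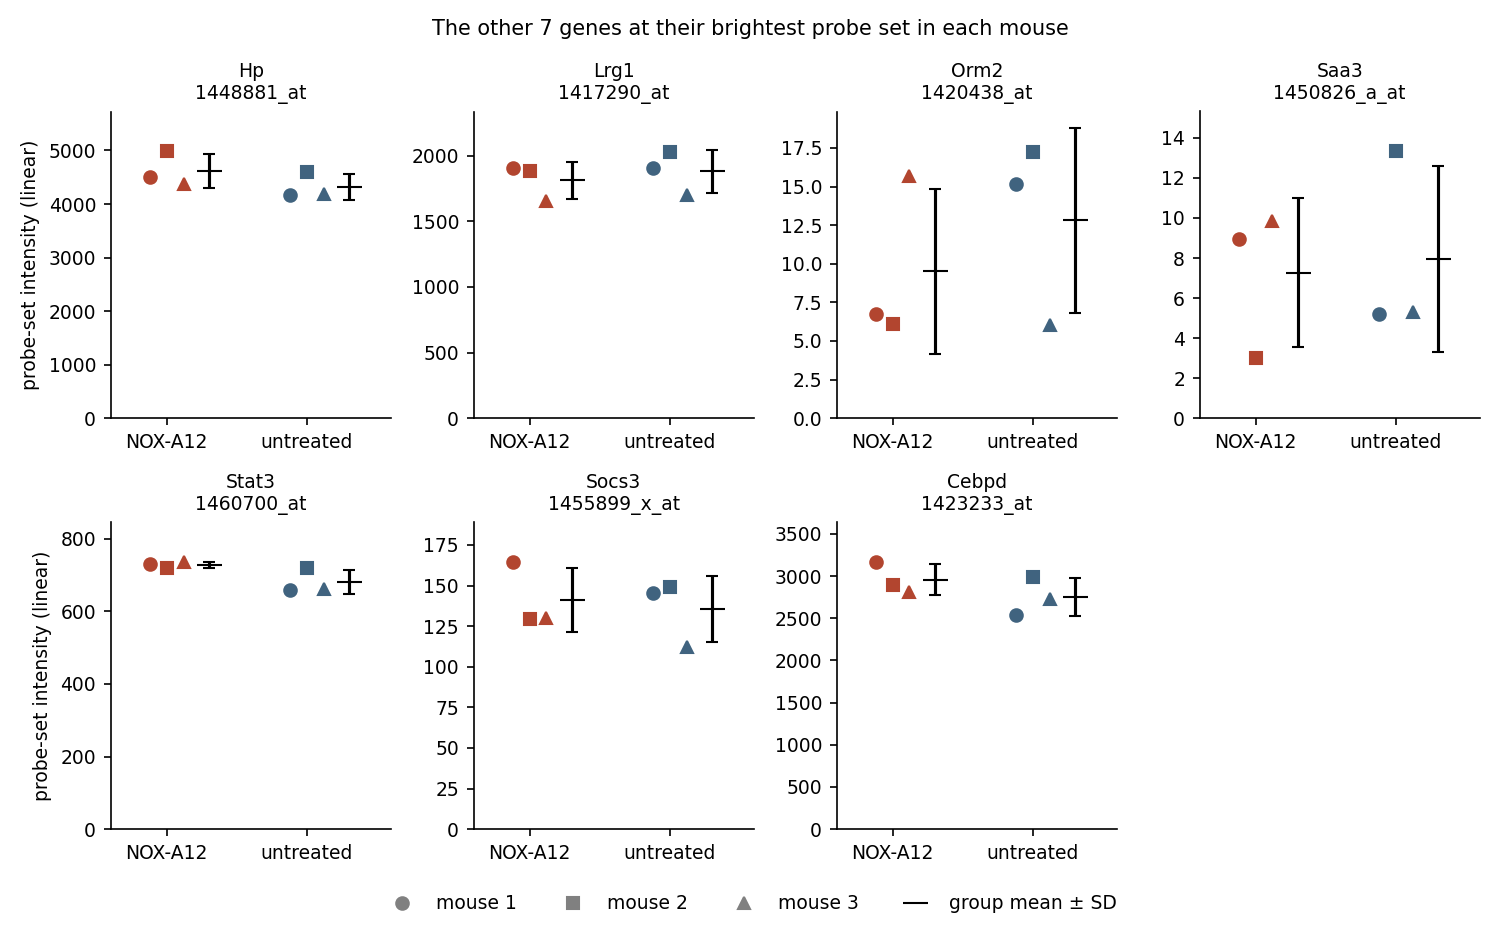
Probe-set intensity (linear scale) of the other 7 genes at their brightest probe set in each mouse, NOX-A12 left and untreated right, with the group mean and SD beside the points. NOX-A12 and untreated mice overlap in every panel, and Orm2 and Saa3 stay at intensities between 3.00 and 17.3.

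Counted over probe sets, 4 of the 17 had groups that did not overlap with NOX-A12 higher, the probe set of Orm1 and the 3 of Crispld2, where 4% of all probe sets on the array did so. The count was 7 without untreated mouse 2 and 5 without NOX-A12 mouse 2. More of all probe sets also had groups that do not overlap when 1 mouse was left out, so these counts are not set against the 4%. None of the 17 had all NOX-A12 mice below all untreated mice, where 5.85% of all probe sets did. Since the members were chosen on this contrast, nothing is read from these shares. In the limma fit 0 of the 17 passed over all probe sets, and 13 of the 17 differences were above 0. Taking the brightest probe set of each gene, 6 of the 9 genes were above 0 with a median of 0.10, against 47.2% of all genes with a median of -0.01. Orm1 and Crispld2, known to be higher when the set was drawn up, had differences of 0.64 to 0.84. The other 7 genes had differences of -0.17 to 0.10.

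**Figure D3:**
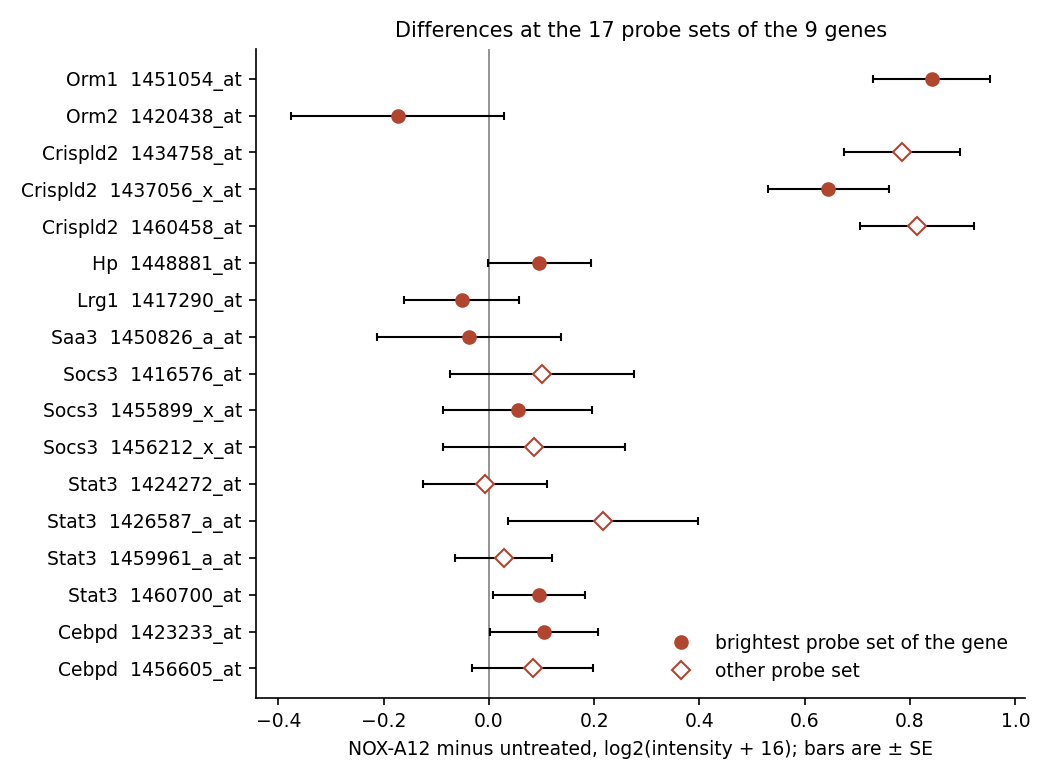
Log2(intensity + 16) of NOX-A12 mice less that of untreated mice, with SE, for all 17 probe sets. Orm1 and the 3 Crispld2 probe sets lie between 0.64 and 0.84, and the other 13 lie between -0.17 and 0.22.

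Promoter sequence was not used to choose the members, and RefSeq windows (GRCm38.p6, 250 bases before to 50 after the gene start) were matched for 6 of the 9 genes, all but Orm1, Hp and Cebpd. Searched on both strands were TTCNNNGAA, bound by STAT factors, TTGCNNAA, a C/EBP core, CTGGGAA, an element of acute-phase genes, GNACA followed after 3 bases by TGTNC for the glucocorticoid receptor, and GGGAN followed directly by TTTCC for NF-kB. Of 32851 windows of that length, 8.3% held the STAT motif, 10.8% the C/EBP core, 11.1% the acute-phase element, 0.475% the glucocorticoid receptor motif and 0.411% the NF-kB motif. The STAT and acute-phase motifs can overlap each other. Among the 6 members searched, Socs3 held a STAT match, Orm2 and Saa3 a C/EBP match and Lrg1 the acute-phase element, while Crispld2 and Stat3 held 0 matches. Members with a match are shown with 26 bases on either side, and Orm3 is shown beside Orm2 because their genes are neighbours. Orm3 also held the acute-phase element on the opposite strand, at bases 10 to 16 after the gene start. Only its C/EBP match is shown. Capitals mark the match, and each sequence reads along the strand of its gene, so that in Saa3 the core lies on the opposite strand.
Socs3 (chr11:117969486-117969546, minus strand): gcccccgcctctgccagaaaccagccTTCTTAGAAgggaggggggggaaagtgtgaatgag
Orm2 (chr4:63362303-63362362, plus strand): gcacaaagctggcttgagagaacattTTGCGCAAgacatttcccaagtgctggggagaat
Orm3 (chr4:63356011-63356070, plus strand): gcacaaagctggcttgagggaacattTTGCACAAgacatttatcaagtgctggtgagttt
Saa3 (chr7:46715742-46715801, minus strand): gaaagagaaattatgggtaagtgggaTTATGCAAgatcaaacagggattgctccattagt
Lrg1 (chr17:56122016-56122074, minus strand): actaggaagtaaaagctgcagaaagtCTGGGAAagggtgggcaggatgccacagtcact

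The windows of Orm2 and Orm3, each cut around its C/EBP match, were identical at 53 of 60 positions. The match began at base -120 from the gene start in Orm2 and at -121 in Orm3. A match is a run of letters and not a known site, and a window without one says only that these letters are not in it.

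Genes of the surrounding pathway were taken from lists of non-members, 1 brightest probe set per gene, and none of their genes passed the limma fit over all probe sets. Over all genes, 1.78% were higher and 3.53% lower at an unadjusted p under 0.05. Of 17 genes for gp130 cytokines, their receptors and JAK kinases, 9 were higher and 8 lower, with a median of 0.03, and at that unadjusted threshold 1 was higher and 2 were lower. Without untreated mouse 3 the median was -0.08. Il6st, which encodes gp130 itself, averaged 397 ± 52.7 in NOX-A12 and 533 ± 16.5 in untreated marrow (SD, n = 3 each), a log2 difference of -0.42 ± 0.11. Its other probe sets gave -0.02 ± 0.16, 0.08 ± 0.22 and 0.10 ± 0.12, so its 4 probe sets differed in sign. Lifr, the receptor chain for leukaemia inhibitory factor, gave -0.33 ± 0.16. The gp130 cytokine genes Clcf1 and Ctf1 gave -0.36 ± 0.09 and 0.40 ± 0.13, both at mean intensities under 100.

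Of 18 other STAT genes and STAT3 targets and brakes, 13 were higher and 5 lower, with a median of 0.09, and 1 was higher at an unadjusted p under 0.05. The median was 0.02 without untreated mouse 3. The gene past that threshold, Ptpn6, encodes the phosphatase SHP-1, which dampens cytokine receptor signalling. It averaged 2212 ± 216 in NOX-A12 and 1719 ± 298 in untreated marrow (SD, n = 3 each), a log2 difference of 0.37 ± 0.15, with 0.39 ± 0.13 at its second probe set. Bcl3, an inhibitor-kappa-B family member, Junb, a subunit of AP-1, and Timp1, an inhibitor of metalloproteinases, gave 0.21 ± 0.11, 0.43 ± 0.29 and 0.28 ± 0.21, with overlapping groups. The 4 measured genes of the C/EBP family were all above 0, with a median of 0.15 and 0 at an unadjusted p under 0.05. The median was 0.16 without untreated mouse 3. Cebpa, of granulocyte commitment, gave 0.14 ± 0.10, Cebpg 0.16 ± 0.12, Cebpb, of emergency granulopoiesis, 0.18 ± 0.18, and Ddit3, of the stress response, 0.01 ± 0.10. The other probe sets of Cebpg gave 0.39 ± 0.15 without overlap of the groups and 0.02 ± 0.16 with overlap.

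Of 23 other acute-phase protein genes, 12 were higher and 11 lower, with a median of 0.02, and 2 were lower at an unadjusted p under 0.05. The median of the 23 genes was 0.00 without untreated mouse 3. The 2 lower genes were Ptx3, the long pentraxin made by myeloid and stromal cells, at -0.45 ± 0.17, and Saa4, a constitutive serum amyloid A, at -0.27 ± 0.10. For 12 of the 23, Saa4 among them, the mean intensity was under 16, as it was for Apcs, serum amyloid P (-0.20 ± 0.10), and Hpx, which encodes the haem carrier haemopexin (0.22 ± 0.12). Lcn2, the siderophore-binding protein of neutrophil granules, was bright at 10730 ± 247 in NOX-A12 and 10307 ± 1022 in untreated marrow (SD, n = 3 each) and gave 0.06 ± 0.10. Cp gave -0.09 ± 0.15 at its brightest probe set and -0.68 to 0.15 at its others. At those of -0.68, -0.55, -0.44 and -0.43 all NOX-A12 mice lay below all untreated mice.

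Genes of 2 routes that induce acute-phase proteins were described in the same way. Of 10 genes for the glucocorticoid receptor and its targets, 5 were higher and 5 lower, with a median of 0.02 and 0 at an unadjusted p under 0.05. Without untreated mouse 3 the median was 0.09. Fkbp5, a co-chaperone of the receptor, gave 0.39 ± 0.22, the receptor gene Nr3c1 0.14 ± 0.11, the cell-cycle inhibitor gene Cdkn1a 0.10 ± 0.11 and Tsc22d3, encoding the glucocorticoid-induced leucine zipper, 0.36 ± 0.35. At its other probe set Cdkn1a gave 0.44 ± 0.20, with all NOX-A12 mice above all untreated mice. Tsc22d3 had intensities of 1646, 2039 and 1568 in NOX-A12 mice, against 733, 1686 and 2013 in untreated mice, so that only untreated mouse 1 stood apart.

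Of 13 genes for interleukin-1, tumour necrosis factor and lipopolysaccharide sensing, 9 were higher and 4 lower, with a median of 0.03, and at an unadjusted p under 0.05 2 were higher and 1 was lower. The median was 0.03 without untreated mouse 3. Cd14, the lipopolysaccharide co-receptor, was highest at 2.11 ± 0.23, and its partner Tlr4 gave 0.25 ± 0.10. Il1rap, the shared chain of interleukin-1 receptors, gave 0.23 ± 0.12. Il1a, an interleukin-1 cytokine, gave -0.35 ± 0.10 at means of 35.5 in NOX-A12 and 49.7 in untreated marrow. The other interleukin-1 cytokine gene listed, Il1b, was brighter, at 1548 in NOX-A12 and 1198 in untreated marrow, and gave 0.38 ± 0.20. Tnf gave 0.32 ± 0.17, and the groups overlapped for both Il1b and Tnf.

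**Figure D4:**
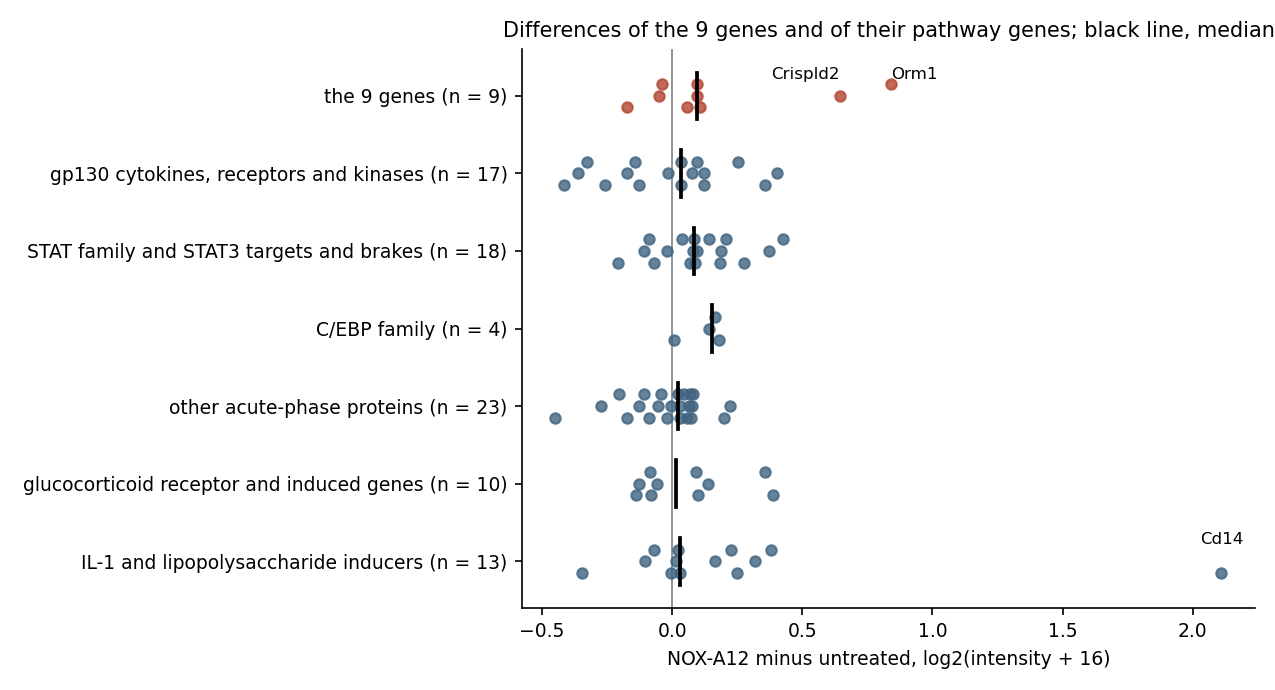
Log2(intensity + 16) of NOX-A12 mice less that of untreated mice, for the 9 genes and for each gene of the 6 pathway lists at its brightest probe set, with the median of each list as a black line. Crispld2 (0.64), Orm1 (0.84) and Cd14 (2.11) are the only points above 0.6, and the list medians lie between 0.02 and 0.15.

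Markers of cell types that can make these proteins were set beside the members, since whole marrow was measured, and fewer cells of a type cannot be told apart from less RNA per cell. Liver markers were dim: of 9, 4 averaged under an intensity of 16, Alb among them (0.06 ± 0.21), and 0 were at or below 1. Their summed intensity was 307 to 324 in NOX-A12 mice and 238 to 362 in untreated mice, with 6 of 9 higher. The largest differences in either direction were those of Ahsg (0.31 ± 0.11) and Apoa1 (-0.23 ± 0.21). Neutrophil markers, 7 of 10 higher with a median of 0.05, summed to 87614 to 90617 in NOX-A12 mice and 83559 to 91065 in untreated mice. Cxcr2 (0.42 ± 0.42) and Cd177 (0.17 ± 0.14) had the largest differences. The brightest, S100a8, averaged 16616 in NOX-A12 and 16576 in untreated marrow, near the highest intensity on any array, 16790. Such bright probe sets weigh most in the sum, and a change in them may be poorly seen. Monocyte markers, 5 of 6 higher with a median of 0.31, summed to 11427 to 13497 in NOX-A12 mice and 7818 to 12351 in untreated mice, led by F13a1 (0.52 ± 0.19) and Fn1 (0.32 ± 0.17).

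Macrophage, adipocyte and stromal markers had lower values in the NOX-A12 group, where the group means of Orm1 and Crispld2 were higher. Macrophage markers, 8 of 9 lower with a median of -0.30, summed to 6845 to 7627 in NOX-A12 mice and 7256 to 8627 in untreated mice, led by Siglec1 (-0.48 ± 0.12) and Mertk (-0.45 ± 0.13). Adipocyte markers, 5 of 5 lower with a median of -0.52, summed to 3176 to 4578 in NOX-A12 mice and 4168 to 6276 in untreated mice, led by Pparg (-0.58 ± 0.12) and Adipoq (-0.56 ± 0.21). Stromal reticular markers, 8 of 8 lower with a median of -0.44, summed to 5109 to 5996 in NOX-A12 mice and 6923 to 8391 in untreated mice, led by Lepr (-0.65 ± 0.19) and Igfbp5 (-0.61 ± 0.11). Endothelial markers (6 of 6 lower, median -0.53) and B-lineage markers (6 of 6 lower, median -0.32) also had lower values, led by Robo4 (-0.62 ± 0.12) and Cldn5 (-0.58 ± 0.15) and by Igll1 (-0.57 ± 0.16) and Cd79a (-0.53 ± 0.15). Skeletal muscle markers had a median of 0.01, erythroid ones 0.03 and T-lineage ones 0.00. Within these lists, muscle Ckm (0.38 ± 0.14) and T-lineage Cd3d (0.46 ± 0.14) had all NOX-A12 mice above all untreated mice. The groups of the others in these lists overlapped. None of the marker genes passed the limma fit over all probe sets. Untreated mouse 3, lowest for Orm1, was the highest untreated mouse for Crispld2. It was lowest for the summed neutrophil (83559) and monocyte (7818) markers. The summed macrophage (8627), adipocyte (6276) and stromal (8391) markers were highest in that mouse. The part of these markers in the values of Orm1 and Crispld2 was not tested.

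The genes whose profile over the 6 mice was most like that of Orm1 or Crispld2 were found by the root mean square difference of log2 deviations from each gene's own mean, among 11003 genes brighter than the median probe set. Nearest to Orm1 were Nt5e, encoding the ectoenzyme CD73 that makes adenosine, at a distance of 0.12, Mpzl2, an adhesion protein gene, at 0.14, and Ifnz, an interferon gene, at 0.20. Crispld2 was the sixth nearest, at a distance of 0.22. Nt5e had intensities of 642, 729 and 638 in NOX-A12 mice, against 350, 463 and 304 in untreated mice, a difference of 0.84 ± 0.16. Its second probe set, at 141 and 138 on average in NOX-A12 and untreated marrow, gave 0.03 ± 0.16 instead. The other probe sets of Mpzl2 gave 0.51 ± 0.09 without overlap of the groups and 0.14 ± 0.17 with overlap.

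Nearest to Crispld2 were the T-cell receptor gamma segment Trgv4 at 0.13, Il1r2, the decoy receptor of interleukin-1, at 0.14, and 6530402F18Rik at 0.15. Il1r2 had intensities of 614, 676 and 724 in NOX-A12 mice, against 480, 353 and 465 in untreated mice, and like Crispld2 was highest in NOX-A12 mouse 3. Its log2 difference was 0.62 ± 0.14. The other probe sets of Trgv4 gave 0.36 ± 0.09 and, at mean intensities under 16, -0.09 ± 0.12. That of 6530402F18Rik, also under 16, gave -0.23 ± 0.12. From Crispld2, Orm1 ranked 35, at the same distance of 0.22. These distances rest on the same 6 arrays and mainly on the difference between the groups, so they describe likeness and carry no test.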

How the data were processed

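Per the labels' protocols, whole-marrow total RNA went onto Affymetrix arrays after biotin labelling. Groups and mouse numbers come from the sample titles, which number separate mice. The p-values thus set the group difference against the spread between animals. With 1 array per mouse, that spread includes variation from RNA handling, labelling and arrays. The authors deposited 1 table of linear probe-set intensity values (0.66 to 16790). How these were summarised and normalized is not stated, and scanner files were not used here. The 6 array medians spanned 0.0193 on the log2 scale, and values were used as deposited.

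Of 45037 probe sets, 34945 had 1 gene symbol in the platform annotation, 932 had several and 9160 were not listed. Those of the first kind cover 18193 genes, and a gene stands for its probe set of highest mean over the 6 arrays. The model was fitted to log2(intensity + 16) by lmFit and eBayes of limma 3.58.1, run under R 4.3.3, with no covariate. Its two-sided p-values were adjusted by Benjamini-Hochberg over all probe sets (threshold 0.05). The fit was tested on simulated data with the same spread for every probe set, which the real probe sets do not have. The members and lists were chosen with earlier results of these data known. Every member and probe set is named. Of each pathway list the 4 genes with the smallest unadjusted p are named, of each marker list described the 2 with the largest difference, and for Orm1 and Crispld2 the 3 genes with the nearest profile. Lcn2, Cp, Orm3, Tsc22d3's values by mouse and the marrow markers in the opening were named after their values were seen. So were Il1b, Tnf, Ckm, the difference of Cd3d and the means of S100a8. The other probe sets of Cdkn1a, Cebpg, Mpzl2, Trgv4 and 6530402F18Rik were also named after their values were seen. A planned comparison of protein sequences was not run.

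The alternatives tried were offsets of 1 and 64, median centring, quantile normalization, leaving out probe sets below the 40th percentile of mean level, trend and robust variances, the mouse number as a replicate block, averaging all probe sets of a gene, and leaving out each mouse. Same-numbered mice of the 2 groups are different animals.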

Additional observations from a re-analysis of the deposited data

How the results depend on the processing

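In every alternative fit listed, 0 member probe sets and 0 of all probe sets passed at an adjusted p under 0.05 in limma. Under quantile normalization and under median centring, 4 member probe sets had groups that do not overlap with NOX-A12 higher, as in the values reported, against 7 without untreated mouse 2 and 5 without NOX-A12 mouse 2. Of 219 recomputed member differences 15 changed sign, all of them for Lrg1, Saa3, Socs3, Stat3 or Cebpd with 1 mouse left out. Over the 9 genes the median was 0.055 to 0.14 and the number above 0 was 5 to 8 when 1 mouse was left out. Without dim probe sets 27022 were fitted, of which 398 were higher and 878 lower at an unadjusted p under 0.05 and 992 higher and 1666 lower without overlap. The gp130 list then had a median of -0.047 over 14 genes and the list of other acute-phase proteins -0.013 over 10, over fewer genes than in the full fit. Leaving out 1 mouse gave 554 (without NOX-A12 mouse 1) to 1465 (without untreated mouse 1) higher and 938 to 2090 lower probe sets at an unadjusted p under 0.05. Fewer arrays also gave 3374 to 5055 higher and 4083 to 6044 lower probe sets without overlap, against 1802 higher and 2635 lower with all mice kept. List medians ran from -0.081 (without untreated mouse 3) to 0.050 for gp130 genes, -0.035 (without untreated mouse 1) to 0.014 for other acute-phase proteins, 0.047 (without untreated mouse 1) to 0.16 for the C/EBP family and 0.024 to 0.14 (without NOX-A12 mouse 3) for interleukin-1 and lipopolysaccharide genes. They ran from 0.016 (without untreated mouse 3) to 0.14 (without untreated mouse 1) for STAT genes and from -0.048 (without untreated mouse 1) to 0.11 (without NOX-A12 mouse 1) for glucocorticoid genes, whose median was -0.0021 under quantile normalization. The cause was not tested.

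Same-numbered mice correlated at -0.09, 0.05 and 0.03 in their deviations from the group means, and differently numbered mice at -0.21 to 0.22. With 3 mice a group, these values cannot show whether same-numbered mice shared any handling. With the replicate block, 855 probe sets were higher and 1262 lower at an unadjusted p under 0.05, and the median over the 9 genes was 0.10.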
